A study of Mus musculus with 4 samples.

Results

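Cells carrying RNA for both Cd209a and Mgl2 together with abundant MHC class II RNA were examined in synovial tissue of the mouse hind paw after arthritogenic serum. Barcodes were kept if they held 500 or more genes and if mitochondrial transcripts made up less than 10% of their UMIs (unique molecular identifiers, which count captured RNA molecules). It was counted as a Cd209a Mgl2 cell when it held at least 1 UMI each of Cd209a and Mgl2 and when H2-Aa, H2-Ab1, H2-Eb1 and Cd74 together made up at least 1% of its UMIs. The rule found 579 cells among 10599 retained barcodes, 326 of 4642 at day 1, 133 of 2722 at day 2 and 120 of 3235 at day 5. They were compared, within each day, with 1359 barcodes that passed the same 1% limit and had no Cd209a UMI, 500 at day 1, 280 at day 2 and 579 at day 5. Mgl2 was not part of that second choice, and 333, 187 and 167 of these Cd209a-free barcodes held an Mgl2 UMI. They have no Cd209a UMI by construction and were shallower, with medians of 3338.5, 3770 and 4002 UMIs against 4467, 5044 and 4731.5, so they may include cells whose Cd209a RNA was not captured.

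All mice carried the Cx3cr1creER:tdTomato reporter, in which tamoxifen marks cells that use the Cx3cr1 promoter at that time and leaves the mark in their descendants. All had received 2 doses of tamoxifen at 4 mg/ml within 48 h, 4 weeks before the K/BxN serum, which carries antibodies that cause a transient joint inflammation. CD45+CD11b+Ly6G- cells were sorted at days 1, 2 and 5, so the sort took myeloid cells and left out neutrophils, and dendritic cells without CD11b would not have entered. Each day is 1 library, day and library cannot be told apart, and the number of mice behind each library is not stated in the labels. Retained barcodes had median depths of 3607.5, 4183.5 and 3897 UMIs at days 1, 2 and 5. The libraries shared 17 barcode sequences between days 1 and 2, 22 between days 1 and 5 and 13 between days 2 and 5, and no shared barcode was a Cd209a Mgl2 cell in both of its libraries.

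Conventional dendritic cells sample antigen in tissue, load peptides onto MHC class II and carry them to T cells in lymph nodes. They depend on the cytokine receptor Flt3, and the type called cDC2 carries CD11b and lectins such as Mgl2 and Clec10a. Tissue macrophages also display MHC class II but are known for complement C1q, the Fc receptor Fcgr1 (CD64), the efferocytosis receptor Mertk and lysosomal digestion. Cd209a, a lectin receptor related to human DC-SIGN, has been used as a marker of dendritic cells derived from monocytes as well as of conventional ones, so the gene alone does not settle which of these a cell is.

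The genes of the rule are given as a description, since they chose the cells. Cd209a (chromosome 8, 3743395 to 3748984 in mm10, by the GENCODE vM21 annotation) stood at 937, 796 and 1141 CPM (the usual depth-scaled UMI count, here of all cells of a library summed) at days 1, 2 and 5. A single Cd209a UMI carried 93 of the 326 cells at day 1 and 41 of the 133 at day 2. Mgl2 (chromosome 11, 70130125 to 70137542) stood at 1884, 1781 and 1499 CPM, against 731, 687 and 281 CPM in the Cd209a-free barcodes. The summed MHC class II genes took a median of 9.54%, 8.75% and 11.1% of a cell's UMIs, against 4.83%, 4.39% and 4.02%. The 1% limit itself cut through few cells. The 6 cells just inside it, between 1% and 1.2%, summed to 4790 CPM of C1qa, 415 CPM of Cd209a and 0 of Napsa, and the 9 barcodes just outside, between 0.8% and 1%, to 6889 CPM of C1qa, 367 CPM of Cd209a and 0 of Napsa. A further 132, 60 and 25 barcodes held both lectins below that limit, and 23, 8 and 89 were MHC class II-high with Cd209a but without an Mgl2 UMI.

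Clec4b1 and Ear2, markers named with these cells but left out of the rule, were both higher in them. The choice of markers was made with earlier results of these data known, so their p-values are not independent support. Clec4b1, a lectin receptor of the Dcar family, was at 346, 265 and 256 CPM at days 1, 2 and 5, against 162, 126 and 99.2 CPM in the Cd209a-free barcodes. Each library gave the higher value to the Cd209a Mgl2 cells, and the difference of 1.21 on the log2 scale (SE 0.10) had an adjusted p of 1.04e-05 in edgeR's quasi-likelihood test with Benjamini-Hochberg adjustment. Ear2, a ribonuclease of the eosinophil-associated family, was at 250, 180 and 141 CPM against 82.6, 64.5 and 67.8 CPM, a log2 difference of 1.43 (SE 0.13, adjusted p 1.33e-05 by the same test). Its last 500 transcript bases share a run of 125 bases with Ear10, so reads of these paralogs are uncertain. A Clec4b1 UMI was found in 66.9%, 63.2% and 53.3% of the cells, and after thinning every barcode to 2000 UMIs in 43.3%, 35% and 35.8%, with 37, 13 and 0 shallower cells left out. Barcodes with both Vsig4 and Sparc, the genes of the synovial lining macrophages and used here as a gauge of free RNA, held one in 3%, 3.05% and 1.91%. Median depth in the lining barcodes was 4563.5, 4916 and 4471 UMIs, close to that of the Cd209a Mgl2 cells. This lining gate did not leave out Cd209a Mgl2 cells or Cd209a-free barcodes, so the groups can overlap. Single lining barcodes held up to 18, 23 and 4 Cd209a UMIs.

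The Cd209a Mgl2 cells were 7.02% of retained barcodes at day 1 (exact Clopper-Pearson 95% interval 6.30% to 7.80%), 4.89% at day 2 (4.11% to 5.76%) and 3.71% at day 5 (3.08% to 4.42%). The intervals cover counting error only, and with 1 library a day no test between days was possible. The day 5 value turned on Mgl2. Without the Mgl2 requirement the shares were 7.52%, 5.18% and 6.46%.

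Against the Cd209a-free barcodes, 230 of 7965 tested genes were higher in the Cd209a Mgl2 cells (2.89%) and 233 were lower (2.93%), with UMIs summed per library and class, library as a term, and edgeR's quasi-likelihood test at an adjusted p under 0.05. Of the 463 genes called in either direction (5.81%) 461 went the same way in all 3 libraries, 107 were at least 2-fold higher and 68 at least 2-fold lower. The median log2 difference over all tested genes was -0.01. The 6 genes of the rule were kept out of the test. The 3 libraries are the only repeats of this difference and are also 3 days, so the spread behind each p holds both. The counts were 97 higher and 93 lower without the day 1 library, 152 and 152 without day 2, and 347 and 254 without day 5. Without the library term they were 43 and 11, and with DESeq2 85 and 88.

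The first of the higher genes at 50 CPM or more was a neighbour of Cd209a. Cd209d (chromosome 8, 3871824 to 3878548), another lectin of the same gene cluster, was at 569, 508 and 492 CPM at days 1, 2 and 5 against 121, 55.2 and 25.7 CPM. The classes did not overlap, and the log2 difference was 3.12 (SE 0.25, adjusted p 7.06e-06, edgeR quasi-likelihood test). The longest run of bases shared by the 3' ends of Cd209a and Cd209d was 10 bases within the last 500. Of the first 12 genes 4 belonged to the natural killer receptor families, Klra17, Klrd1, Klrk1 and Klrb1b, C-type lectin-like receptors encoded together on chromosome 6. Klrd1, which encodes CD94, was at 135, 90.8 and 214 CPM against 27.4, 8.37 and 50.7 CPM, a log2 difference of 2.37 (SE 0.17, adjusted p 3.70e-06). It was detected in 31.3%, 33.1% and 40.0% of the Cd209a Mgl2 cells against 7%, 3.21% and 8.29% of the Cd209a-free barcodes, and in 0.731%, 1.42% and 1.18% of the lining barcodes. Thinned to 2000 UMIs the shares in the Cd209a Mgl2 cells were 19.4%, 11.7% and 26.7%. The log2 differences of Klra17, Klrk1 and Klrb1b were 2.51, 2.17 and 2.05. Genes of T and NK cells were mostly too low to test. Of 14 such genes Cd2 alone was abundant enough to test, at 45.9, 44.1 and 25 CPM against 49.7, 30.1 and 31.8 CPM (adjusted p 0.952), and Cd3e, Nkg7 and Ncr1 were listed in none of the 3 files.

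Adhesion genes were among the same first 12. Itgb7, the beta chain of the integrins that bind MAdCAM-1 and E-cadherin, was at 196, 192 and 233 CPM against 65.4, 62.8 and 75 CPM, apart in each library. Its log2 difference was 1.64 (SE 0.11, adjusted p 3.24e-06, edgeR quasi-likelihood test). It was not particular to these cells. Barcodes with both Ly6c2 and Plac8 UMIs, a monocyte gate of 18, 28 and 485 barcodes, carried Itgb7 at 322, 203 and 186 CPM. The monocyte gate likewise did not leave out barcodes of either class. Jaml, a junctional adhesion molecule of leukocytes, was at 99.8, 107 and 105 CPM against 16.2, 16.7 and 24.2 CPM. The classes did not overlap, with a log2 difference of 2.46 (SE 0.16, adjusted p 3.24e-06). The others were the fatty acid transport protein gene Slc27a3 (2.23), the cytochrome c oxidase subunit gene Cox6b2 (2.37), the ribonuclease gene Rnase6 (1.69), Hepacam2 (1.71) and the lectin gene Cd209b (1.47, SE 0.37, adjusted p 0.0304).

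**Figure D1:**
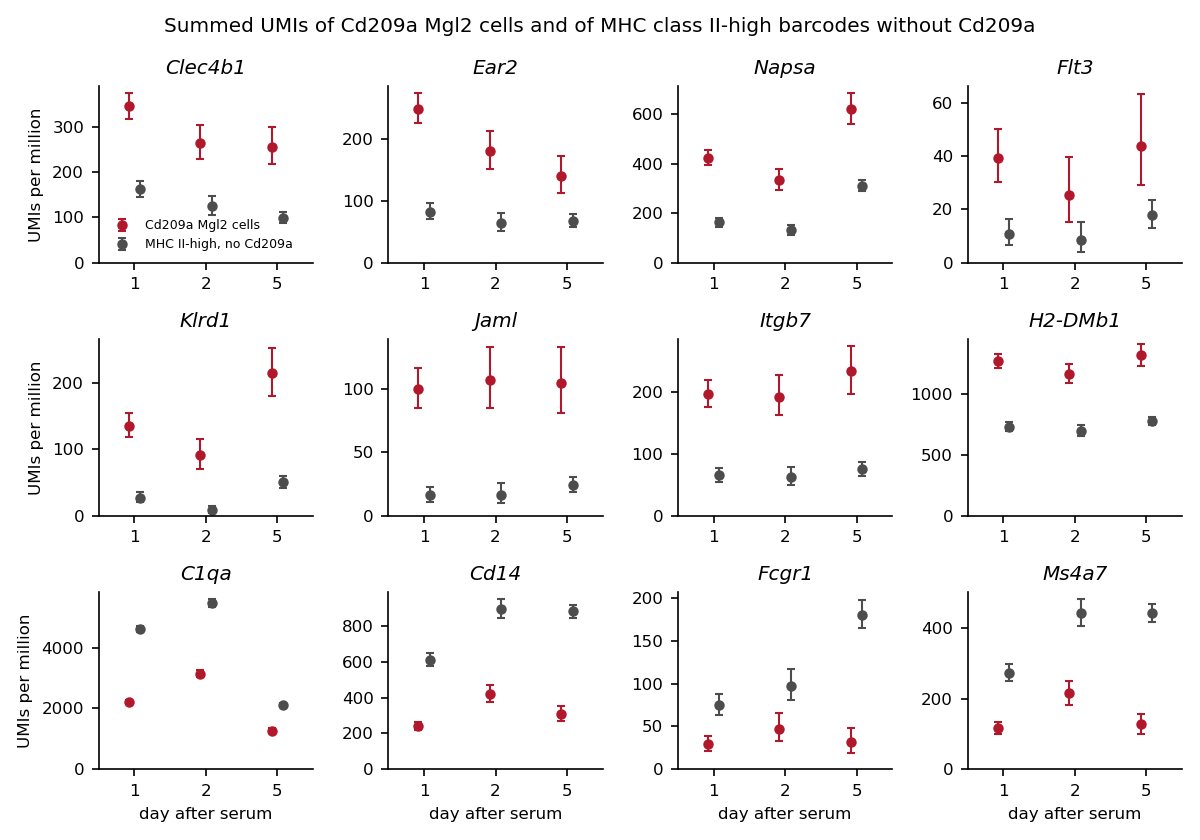
Summed UMIs (CPM) of named genes at days 1, 2 and 5 after serum, in Cd209a Mgl2 cells and in MHC class II-high barcodes without Cd209a, with 95% Poisson intervals that cover counting error only. Flt3 stood at 39.2, 25.4 and 43.8 in the Cd209a Mgl2 cells against 10.6, 8.37 and 17.8, while C1qa stood lower in them in each library.

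Genes of conventional dendritic cells were higher as a group. Of the 25 genes of the conventional DC core list 20 could be tested, 9 were higher and 0 lower, and the median log2 difference was 0.71, with library medians of 0.93, 0.97 and 0.64. Flt3 (chromosome 5, 147330741 to 147400489) was at 39.2, 25.4 and 43.8 CPM against 10.6, 8.37 and 17.8 CPM. Its lowest value in the Cd209a Mgl2 cells lay above its highest in the Cd209a-free barcodes, and the log2 difference was 1.61 (SE 0.23, adjusted p 0.000621, edgeR quasi-likelihood test). A Flt3 UMI was seen in 14.7%, 11.3% and 18.3% of the cells, against 4.00%, 3.21% and 6.04% of the Cd209a-free barcodes and 1.06%, 0.509% and 0.442% of the lining barcodes. At 2000 UMIs a barcode the shares were 9.34%, 2.5% and 7.50% in the Cd209a Mgl2 cells and 1.48%, 1.79% and 2.49% in the Cd209a-free barcodes, close together at day 2. Most cells gave no Flt3 UMI at this depth.

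Napsa, which encodes the aspartic protease napsin A, was at 424, 334 and 621 CPM against 163, 131 and 310 CPM. It was higher in each library (log2 difference 1.26, SE 0.10, adjusted p 7.06e-06, edgeR quasi-likelihood test). Monocyte-gated barcodes with Ly6c2 and Plac8 UMIs, 18, 28 and 485 in number, carried it at 885, 735 and 662 CPM. Bcl11a, a transcription factor of dendritic cell and lymphoid precursors, was at 31.8, 25.4 and 36.0 CPM against 8.61, 0.837 and 8.33 CPM, a log2 difference of 2.29 (adjusted p 0.000621). Kmo, Dpp4, P2ry10, Cd24a, Fgl2 and Irf4 were the other 6 higher genes, at log2 differences of 2.20, 1.79, 1.16, 1.08, 0.92 and 0.85. P2ry10 lost its call with DESeq2 and without the day 1 or the day 2 library (adjusted p 0.192, 0.132 and 0.112). Zbtb46, the transcription factor gene most used to tell conventional dendritic cells from other myeloid cells, was too low to test, at 8.57, 6.68 and 21.9 CPM against 2.53, 0 and 1.51 CPM. Itgax, which encodes CD11c, was at 55.1, 38.7 and 75 CPM against 27.4, 31.8 and 57.5 CPM and missed the threshold (log2 difference 0.63, adjusted p 0.0539). Traf1, an adaptor of TNF receptors, was at 74.7, 102 and 131 CPM against 40.0, 42.7 and 177 CPM, on different sides by day (adjusted p 0.373).

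Among the dendritic cell subtypes the cDC2 list held the most called genes, while the median log2 difference was larger in the cDC1 list. In the cDC2 list 5 of 11 tested genes were higher and 0 lower, with a median of 0.31: Cd7, Clec4b1, Clec10a, Irf4 and Tnip3. With DESeq2 the calls of Cd7, Clec10a and Irf4 were lost (adjusted p 0.449, 0.319 and 0.292), and Irf4 also lost it without the day 1 library (0.104) and after thinning (0.0885). Clec10a, the close relative of Mgl2, was at 185, 162 and 314 CPM against 123, 104 and 75 CPM (log2 difference 1.14, SE 0.22, adjusted p 0.00573, edgeR quasi-likelihood test). The 3' ends of the 2 transcripts share at most 13 bases in a row. In the cDC1 list Naaa and Cd24a were higher and Irf8 lower among 7 tested genes, with a median of 0.36. Summed, the cDC1 list stood at 760, 732 and 764 CPM against 556, 545 and 538 CPM. The summed cDC2 list differed less, at 3711, 3606 and 3946 CPM against 3660, 3447 and 3882 CPM. Irf8, the transcription factor that cDC1 require, was at 39.2, 50.8 and 62.5 CPM against 94.8, 103 and 89.3 CPM (log2 difference -0.93, adjusted p 0.0023). Xcr1 and Clec9a, which define cDC1, were listed in none of the 3 files. None of 9 tested genes of mature dendritic cells was called, and Ccr7, which guides them to lymph nodes, was at 3.06 and 1.56 CPM at days 1 and 5 against 5.57 and 43.9 CPM. Among 4 tested plasmacytoid genes 1 was called, Irf7, which was lower, and that call was lost without any one of the 3 libraries (adjusted p 0.0819, 0.0664 and 0.533 without days 1, 2 and 5) and with DESeq2 (0.703).

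**Figure D2:**
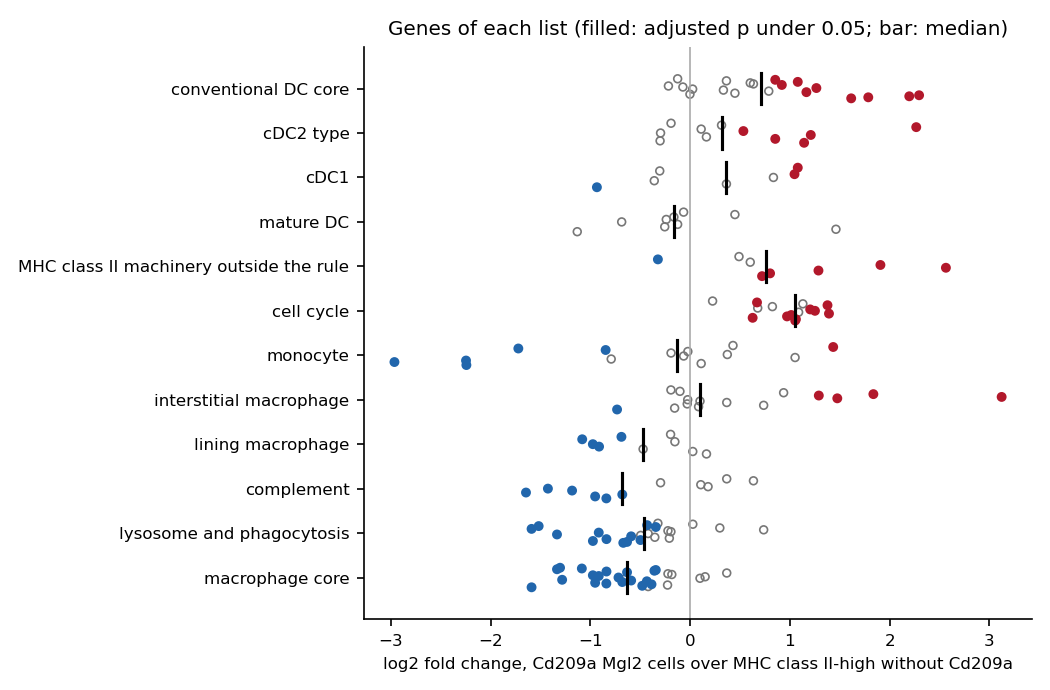
Log2 fold change of each tested gene, Cd209a Mgl2 cells over MHC class II-high barcodes without Cd209a, by gene list, with filled points for an adjusted p under 0.05 and a bar at each list's median. The conventional DC core list has its median at 0.71 and the macrophage core list at -0.63, and the list of cell cycle genes lies to the right at 1.05.

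Genes of macrophages were lower as a group but were far from absent. Of the 28 genes of the macrophage core list 27 were tested, 0 were higher and 19 lower, and the median log2 difference was -0.63, with library medians of -0.83, -0.48 and -0.58. C1qa, a chain of the complement component C1q, was at 2207, 3146 and 1262 CPM against 4612, 5461 and 2127 CPM. It was lower in each library (log2 difference -0.84, SE 0.07, adjusted p 6.19e-06, edgeR quasi-likelihood test), and C1qb and C1qc fell by 0.95 and 0.68 on the log2 scale. Cd14, the lipopolysaccharide co-receptor, was at 239, 421 and 308 CPM against 612, 896 and 883 CPM. The classes did not overlap, with a log2 difference of -1.28 (SE 0.09, adjusted p 3.70e-06). Fcgr1, the Fc receptor CD64 that is used to tell macrophages from dendritic cells, was at 28.8, 46.8 and 31.3 CPM against 75, 97.1 and 181 CPM (log2 difference -1.59, SE 0.21, adjusted p 0.000338). Every library put Fcgr1 below the Cd209a-free barcodes, least at day 2. Ms4a7, Msr1, Trem2 and Apoe fell by 1.30, 1.33, 0.98 and 0.72.

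The remaining macrophage genes moved less or not beyond the spread. Mertk was at 15.9, 14.7 and 7.82 CPM against 19.3, 23.4 and 12.1 CPM and missed the threshold (adjusted p 0.475). Adgre1, which encodes F4/80, was at 169, 198 and 136 CPM against 236, 261 and 175 CPM, with a log2 difference of -0.39 and an adjusted p of 0.032 that did not hold without the day 1 or the day 2 library or with DESeq2 (adjusted p 0.28, 0.206 and 0.505). Mrc1 and Cd163, scavenger receptor genes, had log2 differences of 0.10 and 0.37 that did not pass. The summed list stood at 16764, 23346 and 11912 CPM in the Cd209a Mgl2 cells, at 30341, 34960 and 19593 CPM in the Cd209a-free barcodes and at 61830, 61675 and 60807 CPM in the lining barcodes. Monocyte-gated barcodes, with UMIs of Ly6c2 and Plac8, summed to 12317, 19556 and 14556 CPM, lower than the Cd209a Mgl2 cells at days 1 and 2 and higher at day 5. The gate held only 18 and 28 barcodes at days 1 and 2, and 485 at day 5. The dendritic cell list summed to 1274, 1131 and 1704 CPM in the Cd209a Mgl2 cells, against 694, 604 and 1201 CPM in the Cd209a-free barcodes and 210, 204 and 268 CPM in the lining barcodes. In the monocyte-gated barcodes it summed to 1287, 1216 and 1355 CPM, close to the Cd209a Mgl2 cells at days 1 and 2. Much of the monocyte-gated sum was Napsa, at 885, 735 and 662 CPM. Flt3 was at 0, 0 and 10.3 CPM there and Zbtb46 at 0, 0 and 0.467 CPM, so similar sums do not mean similar genes. With so few gated barcodes at days 1 and 2 the order of these sums is uncertain.

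Genes of digestion and of complement were lower as well. Of 22 tested lysosome and phagocytosis genes 0 were higher and 12 lower (median -0.46), among them the cathepsin genes Ctsl (-0.98) and Ctsb (-0.67) and the receptor gene Axl (-0.92). Axl was not called after thinning or against Cd209a-free barcodes without Mgl2 (adjusted p 0.074 and 0.0904). The same held with DESeq2 and without the day 1 library (adjusted p 0.213 and 0.191). Of 11 tested complement genes 6 were lower and 0 higher, including the anaphylatoxin receptors C5ar1, at 116, 155 and 86.0 CPM against 283, 386 and 321 CPM (log2 difference -1.43, adjusted p 1.04e-05, edgeR quasi-likelihood test), and C3ar1 (-1.18). The first 12 lower genes also held Apobec1 (-1.55), Pld3 (-1.50), the lipoprotein lipase gene Lpl (-1.39) and the elastase gene Mmp12 (-1.64). Mmp12 was not called with DESeq2, without the day 1 library or without the 10% of barcodes of highest UMIs (adjusted p 0.446, 0.265 and 0.482). The lining macrophage list had 4 of 9 tested genes lower and 0 higher, namely Cx3cr1, Trem2, Tgfbr1 and Gpr34. Without the day 1 library Cx3cr1, Tgfbr1 and Gpr34 were not called (adjusted p 0.0895, 0.0516 and 0.0879). Its defining genes Vsig4 and Sparc were not called (log2 differences 0.16 and 0.03, adjusted p 0.744 and 0.967).

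Genes of monocytes were more often lower than higher. Of 14 tested genes 5 were lower and 1 higher, Ear2. Plac8 was at 4.90, 0 and 114 CPM against 41.0, 49.4 and 409 CPM (log2 difference -2.24, SE 0.28, adjusted p 0.000228, edgeR quasi-likelihood test). Hp, the haptoglobin gene, was at 1.22, 2.67 and 34.4 CPM against 5.07, 21.8 and 159 CPM (log2 difference -2.25). Both genes were highest at day 5 in either class, and each library placed the Cd209a Mgl2 cells lower. Rnase2a, a ribonuclease gene, and Thbs1, the thrombospondin 1 gene, were also among the first 12 lower genes, at 0, 0 and 36.0 CPM against 7.09, 3.35 and 147 CPM and at 0, 4.01 and 53.2 CPM against 1.52, 8.37 and 210 CPM. Hp, Rnase2a and Thbs1 were low in both classes at days 1 and 2, and their 50 CPM limit for naming was met through day 5. Rnase2a was not called with DESeq2 (adjusted p 0.22). Plac8 lost its call without the Mgl2 requirement (log2 difference -0.79, adjusted p 0.149) and with DESeq2 (adjusted p 0.135). Ly6c2, the classical monocyte antigen, was at 1.84, 0 and 29.7 CPM against 3.55, 3.35 and 101 CPM and was too low to test, and Ccr2, the receptor that lets monocytes leave bone marrow and that cDC2 also carry, was at 639, 590 and 574 CPM against 546, 505 and 673 CPM (adjusted p 0.656).

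The reporter was lower along with its driver. TdTomato was at 186, 250 and 95.4 CPM against 291, 523 and 134 CPM (log2 difference -0.73, SE 0.12, adjusted p 0.00169, edgeR quasi-likelihood test), and at 1069, 1184 and 1092 CPM in the lining barcodes. Cx3cr1 was at 46.5, 64.1 and 37.5 CPM against 106, 111 and 60.2 CPM (log2 difference -0.91, SE 0.15, adjusted p 0.00155). Both genes were lower in all 3 libraries. The TdTomato call was lost without the day 2 library (adjusted p 0.0513) and that of Cx3cr1 without day 1 (adjusted p 0.0895).

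The machinery that loads and edits MHC class II peptides was higher, outside the 4 genes that chose the cells. Of 8 tested genes 5 were higher and 1 lower, with a median log2 difference of 0.76. H2-Oa and H2-Ob form H2-O, which restrains the loading factor H2-M and is typical of B cells and dendritic cells. H2-Oa was at 14.7, 17.4 and 40.6 CPM against 2.03, 0.837 and 9.08 CPM, a log2 difference of 2.56 (SE 0.35, adjusted p 0.000542, edgeR quasi-likelihood test). H2-Ob was at 30.0, 29.4 and 42.2 CPM against 12.7, 8.37 and 6.06 CPM, and in both genes the lowest value of the Cd209a Mgl2 cells lay above the highest of the other class. H2-DMb1, a chain of H2-M itself, was at 1271, 1168 and 1323 CPM against 731, 700 and 779 CPM (log2 difference 0.80, SE 0.07, adjusted p 1.04e-05). H2-DMb2 and H2-DMa were higher by 1.29 and 0.72, and the former lost its call without the day 1 library (adjusted p 0.0685). Ctss, the protease that trims the invariant chain, was lower (-0.32, adjusted p 0.00302), and the transactivator gene Ciita did not pass (0.60, adjusted p 0.225). The cells were chosen on MHC class II RNA and had a higher median share of it than the Cd209a-free barcodes, and the part of that share in these differences was not tested.

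The promoters of these genes are shown because the higher members sit in the same part of chromosome 17 as the class II genes of the rule and are known to be driven through shared promoter boxes. The windows run from 110 bases before to 10 bases after the RefSeq start (GRCm38.p6, read in the direction of the gene). Capitals mark GATTGG, on either strand, which holds the reversed CCAAT of the class II Y box.
H2-DMb1, chr17:34153081-34153200, plus strand: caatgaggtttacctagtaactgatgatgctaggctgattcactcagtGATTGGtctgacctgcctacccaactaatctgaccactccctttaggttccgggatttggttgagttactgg
H2-DMb2, chr17:34145139-34145258, plus strand: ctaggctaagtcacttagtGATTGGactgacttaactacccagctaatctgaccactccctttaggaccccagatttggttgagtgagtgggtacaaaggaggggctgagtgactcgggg
H2-Oa, chr17:34092269-34092388, plus strand: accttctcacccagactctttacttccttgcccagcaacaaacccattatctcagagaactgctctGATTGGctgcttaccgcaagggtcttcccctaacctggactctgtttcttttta
H2-Ob, chr17:34238795-34238914, plus strand: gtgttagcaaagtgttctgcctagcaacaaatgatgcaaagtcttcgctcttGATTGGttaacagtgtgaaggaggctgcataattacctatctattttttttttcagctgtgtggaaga
H2-Aa, chr17:34287814-34287933, minus strand: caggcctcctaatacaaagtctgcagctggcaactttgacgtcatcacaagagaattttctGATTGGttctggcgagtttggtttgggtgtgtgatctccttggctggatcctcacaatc
H2-Eb1, chr17:34305757-34305876, plus strand: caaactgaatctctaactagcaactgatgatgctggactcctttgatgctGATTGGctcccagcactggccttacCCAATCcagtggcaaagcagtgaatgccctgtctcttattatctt
The motif began 62, 91, 44, 58, 49 and 60 bases before the start in the order printed, and H2-Eb1 held it again on the other strand. In the same 120-base window it occurred in 9.67% of 32851 RefSeq promoters. Of 11 MHC class II pathway genes with an entry 8 held it. It was not found in the windows of H2-DMa, Ctss, Ifi30, Cd209a or Mgl2, which says only that these letters are not there, and 13 of the 16 genes looked for had a promoter entry. A match is a description of the sequence and not evidence of binding in these cells.

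Lectins as a family did not move one way. Of 16 tested C-type lectin genes 6 were higher and 5 lower, with a median of -0.02. The 6 were Clec4b1, Clec10a and the Cd209 genes Cd209b, Cd209d, Cd209f and Cd209g, all 4 on chromosome 8 beside Cd209a. Cd209f was at 58.8, 81.5 and 57.8 CPM against 41.5, 33.5 and 7.19 CPM (log2 difference 1.29, adjusted p 0.0223, edgeR quasi-likelihood test), and of these 4 genes Cd209d alone kept its call when 2 Cd209a UMIs were required (Cd209b, Cd209f and Cd209g, adjusted p 0.24, 0.881 and 0.267). The 5 lower ones were the activating receptors Clec4e, Clec4d and Clec4n (-1.72, -1.54 and -1.01), Clec12a (-0.92) and Clec5a (-0.89). Clec4e, which encodes Mincle, was at 18.4, 20 and 86.0 CPM against 44.1, 77.0 and 332 CPM, lower in each library. Of 15 interstitial macrophage genes the 4 Cd209 genes were the only higher ones, 1 was lower, Retnla, and the median was 0.10. Retnla changed sign against Cd209a-free barcodes without Mgl2 (log2 difference 0.26, adjusted p 0.715, from -0.73 and 0.0419).

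Costimulation and cytokine genes showed few differences upward. Of 7 tested costimulation genes 1 was higher, Cd48 (log2 difference 0.40, adjusted p 0.0203, edgeR quasi-likelihood test), a call that leaving out day 1 or day 2 removed (adjusted p 0.105 and 0.163). Cd86 was at 71.7, 81.5 and 117 CPM against 89.7, 77.9 and 130 CPM. Of 24 tested cytokine and chemokine genes 7 were lower and 0 higher, with a median of -0.12. The neutrophil attractant Cxcl2 was at 295, 780 and 414 CPM against 792, 1456 and 1537 CPM (log2 difference -1.36, SE 0.13, adjusted p 3e-05). It was lower in every library, and Cxcl1, the interleukin-1 antagonist gene Il1rn, Osm, Ccl3, Ccl2 and Cxcl16 fell by 1.72, 1.61, 1.12, 1.02, 0.77 and 0.69. In the list 3 genes changed sides between days and were not called. Ccl17, a ligand of Ccr4, was at 462, 574 and 746 CPM against 61.3, 134 and 906 CPM (adjusted p 0.0543). Il1b was at 240, 382 and 1129 CPM against 140, 202 and 1720 CPM (adjusted p 0.538), and the B cell attractant Cxcl13 at 45.9, 54.8 and 106 CPM against 402, 307 and 26.9 CPM (adjusted p 0.132).

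Genes of dividing cells were higher. Of 15 tested cell cycle genes 10 were higher and 0 lower, and the median log2 difference was 1.05. Mki67 was at 39.2, 64.1 and 43.8 CPM against 33.9, 15.9 and 15.9 CPM (log2 difference 1.05, SE 0.28, adjusted p 0.0382, edgeR quasi-likelihood test). Top2a was at 60.6, 85.5 and 48.5 CPM against 41.0, 21.8 and 26.1 CPM (log2 difference 1.06, SE 0.22, adjusted p 0.00999), and a Top2a UMI was found in 8.28%, 10.5% and 4.17% of the cells against 4.80%, 2.86% and 3.97% of the Cd209a-free barcodes and 1.46%, 1.73% and 1.77% of the lining barcodes. Day 1 gave the smallest difference in Mki67 and day 5 the smallest in the share of cells with Top2a. Ccna2, Ube2c, Ccnb2 and Pclaf were higher by 1.39, 1.38, 1.25 and 1.20. Without the 10% of barcodes of highest UMIs Ccnb2 and Pclaf were no longer called (adjusted p 0.267 and 0.555), Ccna2 was not called with DESeq2 (adjusted p 0.0722) and Ube2c not after thinning (adjusted p 0.903).

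Other lists give the limits of the gate. Neutrophil genes summed to 4.29, 8.02 and 21.9 CPM in the Cd209a Mgl2 cells, haemoglobin and erythroid genes to 1.84, 4.01 and 4.69 CPM, and fibroblast genes to 31.8, 48.1 and 6.25 CPM. B cell genes summed to 143, 124 and 153 CPM against 175, 188 and 117 CPM in the Cd209a-free barcodes. Of 12 tested interferon response genes 3 were lower and 0 higher, and of 15 immediate early genes Hspa1a and Hspa1b were higher and Ier3 lower. Of 8 genes of alternative activation 4 were lower and 0 higher (median -0.71). With DESeq2 the interferon calls of Irf7, Ifi204 and Ifitm3 were lost (adjusted p 0.703, 0.0669 and 0.487). The alternative activation gene Tgm2 lost its call with DESeq2 (adjusted p 0.422). In edgeR's quasi-likelihood test Tgm2 also lost it without the day 1 or the day 5 library (adjusted p 0.0646 and 0.197), and Retnla after thinning (0.455).

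The summed values hide a wide spread between cells. Per cell, the macrophage core list took a median of 0.635%, 1.32% and 0.412% of UMIs at days 1, 2 and 5, with quartiles from 0.282% to 2.74%, 0.422% to 3.56% and 0.238% to 2.26%. The dendritic cell list took 0.120%, 0.0947% and 0.161%. C1qa was detected in 66.6%, 80.5% and 57.5% of the cells, against 99.8%, 99.9% and 99.7% of lining barcodes. Cells were therefore set out by the share of their UMIs from C1qa, C1qb and C1qc, with limits at 0.1% and 0.5% that were chosen after the values were seen. The classes so made are ranges of a score and not cell types, and nothing across them was tested. The C1q-low range held 148 of 326, 38 of 133 and 73 of 120 cells (45.4%, 28.6% and 60.8%), and the C1q-high range 136, 71 and 33 (41.7%, 53.4% and 27.5%). Near the limits lay 16, 9 and 6 cells between 0.08% and 0.12%, and 13, 7 and 7 between 0.4% and 0.6%. These windows are narrow, so their small counts do not show a gap between the ranges. Among Cd209a-free barcodes the low range held 10.0%, 5.00% and 41.1% and the high range 79.8%, 87.9% and 39.9%. Lining barcodes were in the high range in 98.9%, 99.7% and 97.2%.

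**Figure D3:**
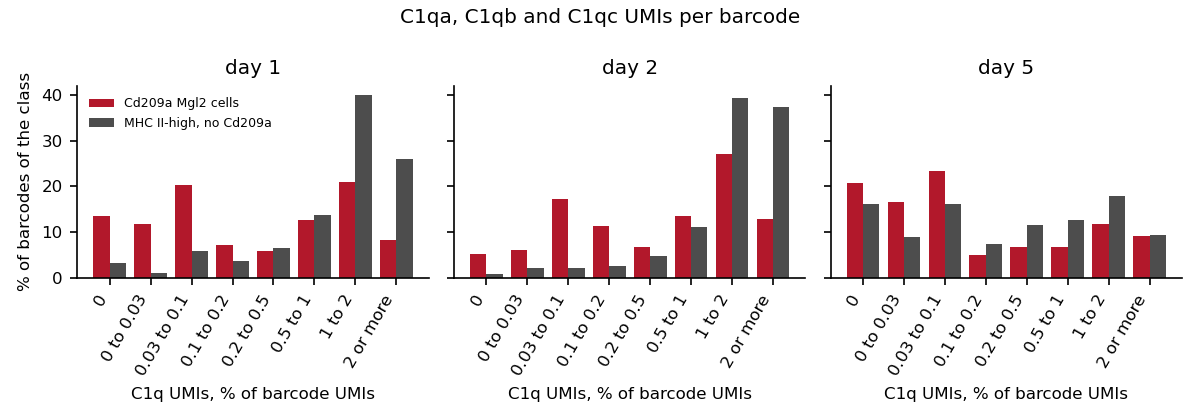
Percent of barcodes in each bin of the C1q share of UMIs (C1qa, C1qb and C1qc summed), for Cd209a Mgl2 cells and for MHC class II-high barcodes without Cd209a, at days 1, 2 and 5. The bins differ in width, so their heights do not compare densities. Most Cd209a Mgl2 cells lie below 0.1% or above 0.5% at each day, and the Cd209a-free barcodes lie mostly above 0.5% at days 1 and 2.

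Dendritic cell genes stood at higher levels in the C1q-low cells. Of 20 tested conventional DC core genes 14 were higher in the low range in all 3 libraries and 1 was higher in the high range, while over all 7962 genes the shares were 18.7% and 27%. The summed list was at 1747, 1712 and 2078 CPM in C1q-low cells and at 805, 761 and 783 CPM in C1q-high cells. Flt3 was at 70.1, 52.8 and 64.4 CPM against 14.8, 15.6 and 6.26 CPM, a ratio of 4.73 at day 1 (95% counting interval 2.43 to 10.1), 3.38 at day 2 (1.16 to 10.5) and 10.3 at day 5 (1.68 to 422, with 1 UMI in the high range). Over the 3 days a Flt3 UMI was present in 62 of 259 C1q-low cells (23.9%), in 7 of 80 between the limits (8.75%) and in 16 of 240 C1q-high cells (6.67%). Zbtb46 and Kmo of the same list had few UMIs, and the intervals of their ratios held 1 in each library. Zbtb46 had ratios of 1.91, 1.58 and 2.06, and Kmo of 1.83, 0.53 and 3.70. A Zbtb46 UMI was present in 7.34% of C1q-low and 4.17% of C1q-high cells, and a Kmo UMI in 10.8% and 7.92%. Napsa of the list, and Itgb7 and Klrd1 outside it, were higher in the C1q-low range in each library. Napsa was at 643, 560 and 852 CPM in C1q-low cells against 225, 201 and 213 CPM in C1q-high cells, and Klrd1 at 217, 185 and 319 CPM against 64.6, 58.0 and 43.8 CPM. H2-Oa was at 31.5, 21.1 and 64.4 CPM against 0, 13.4 and 0 CPM. With 3 counts taken for each sum of 0 the ratio was 7.79 at day 1 and 3.43 at day 5. The lower limits of the counting intervals were 5.82 and 2.59. The day 2 values rested on 4 and 6 UMIs, with a ratio of 1.58 (0.328 to 6.66). Cd74, a gene of the rule, was 2.08-, 1.83- and 1.99-fold higher in the C1q-low range.

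The C1q-high cells carried the macrophage RNA. Of 24 tested macrophage core genes other than C1q 23 were higher in the high range in all 3 libraries and 0 in the low range. Apoe was at 184, 201 and 203 CPM in C1q-low cells and at 6739, 8553 and 8768 CPM in C1q-high cells, a ratio of 36.5, 42.6 and 43.1. Ms4a7 was at 7.15, 5.28 and 5.15 CPM against 242, 350 and 420 CPM, and Csf1r, the receptor for the macrophage growth factor, at 103, 122 and 149 CPM against 817, 806 and 877 CPM. The interstitial macrophage list had 14 of 15 genes higher in the high range in all 3 libraries. Folr2 was at 32.9, 21.1 and 7.73 CPM against 707, 698 and 727 CPM, Lyve1 at 18.6, 5.28 and 15.5 CPM against 719, 489 and 370 CPM, and Retnla at 209, 58.1 and 237 CPM against 4073, 1910 and 2418 CPM. Vsig4 of the lining was also higher there, at 526, 674 and 93.9 CPM against 18.6, 26.4 and 15.5 CPM. TdTomato was at 302, 379 and 188 CPM in C1q-high cells and at 68.6, 63.4 and 69.5 CPM in C1q-low cells.

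Some lectin and chemokine receptor genes differed less between the ranges. Cd209d was at 702, 692 and 541 CPM in C1q-low cells and 489, 431 and 457 CPM in C1q-high cells. Its low-over-high ratio was 1.44 at day 1 (1.25 to 1.65), 1.61 at day 2 (1.28 to 2.02) and 1.18 at day 5 (0.902 to 1.57). Ccr2 was at 689, 513 and 605 CPM against 508, 522 and 463 CPM. The interval of its ratio left out 1 at day 1 (1.18 to 1.56) and only narrowly at day 5 (1.001 to 1.72). Clec10a was at 156, 169 and 309 CPM in the low range and 224, 179 and 401 CPM in the high range, with an interval that left out 1 at day 1 only (0.542 to 0.893). Median depth was 4718, 4536 and 4897 UMIs in C1q-low cells and 4624, 5676 and 3810 in C1q-high cells, without a common order. Cd209a itself was lower in C1q-high cells, at 551, 678 and 545 CPM against 1443, 983 and 1509 CPM, and 39.0%, 40.8% and 39.4% of them rested on a single Cd209a UMI against 14.2%, 23.7% and 11.0%. In lining barcodes a Cd209a UMI occurred in 5.44%, 4.58% and 2.5%, at 34.0, 34.6 and 7.79 CPM. No doublet caller was run, and the part that pairs of cells in 1 droplet, or free RNA, had in the C1q-high range was not tested.

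**Figure D4:**
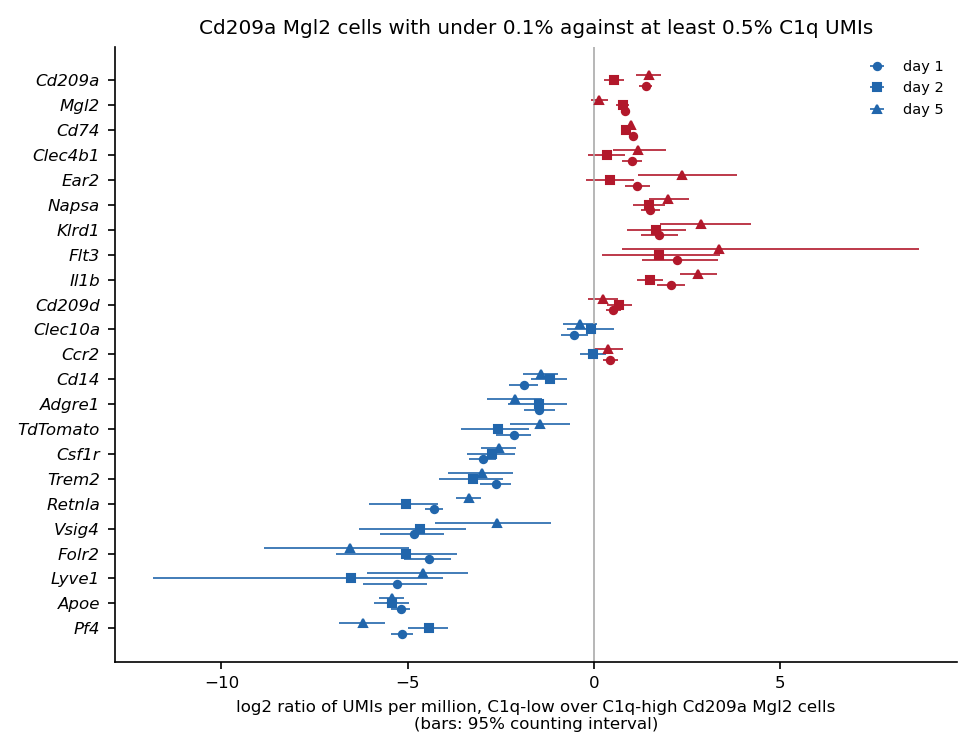
Log2 ratio of CPM, C1q-low over C1q-high Cd209a Mgl2 cells, for each gene and library, with 95% counting intervals. Flt3, Napsa and Klrd1 lie to the right of 0 in all 3 libraries, Apoe, Pf4, Folr2 and Retnla to the left, and Ccr2 and Clec10a close to 0.

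C1q-low barcodes without Cd209a were few before day 5. There were 50, 14 and 238, and they carried Flt3 at 37.1, 31.0 and 28.4 CPM and Napsa at 399, 449 and 466 CPM, so RNA of these genes was not confined to cells with a Cd209a UMI. Their monocyte and macrophage genes are set beside those of the C1q-low Cd209a Mgl2 cells. Plac8 was at 18.6, 759 and 608 CPM in them against 10.0, 0 and 142 CPM, Fcgr1 at 13.9, 46.5 and 186 CPM against 0, 5.28 and 18.0 CPM, and Cd14 at 186, 263 and 1022 CPM against 104, 232 and 191 CPM. Ly6c2 was at 9.28, 15.5 and 144 CPM against 4.29, 0 and 28.3 CPM. At day 1 the Plac8 and Ly6c2 values rested on at most 7 UMIs each and their counting intervals overlapped. These values are descriptions of ranges chosen on the data, and the difference was not tested.

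Between day 1 and day 5 within the Cd209a Mgl2 cells, 62 of 2690 genes with enough UMIs were at least 2-fold higher at day 5 with a counting interval that left out 1 (2.3%), and 30 were at least 2-fold lower (1.12%). The median log2 ratio over these genes was 0.03. With 1 library a day these intervals cover counting error only and say nothing of the spread between mice. Ifitm1, an interferon-induced membrane protein gene, stood at 3.67, 1.34 and 1509 CPM at days 1, 2 and 5, 411-fold higher at day 5 than at day 1 (188 to 1121). The Cd209a-free barcodes were also highest at day 5, at 1.52, 1.67 and 718 CPM. Within the cells the day 5 value was 2289 CPM in the C1q-low range and 75.2 CPM in the C1q-high range. Isg15, another interferon-induced gene, was at 14.7, 6.68 and 42.2 CPM.

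The other genes higher at day 5 followed the C1q ranges in different ways. Il1r2, the decoy receptor for interleukin-1, was at 19.6, 37.4 and 199 CPM (10.1-fold, 6.83 to 15.4), with 301 CPM in C1q-low and 12.5 CPM in C1q-high cells at day 5. Ccl5 was at 2.45, 0 and 108 CPM (44.0-fold, 16.4 to 166), almost all of it in the C1q-low range at 175 CPM against 6.26 CPM. In both genes the day 5 level came mainly from C1q-low cells. Spp1, which encodes osteopontin, was at 50.2, 69.5 and 397 CPM (7.91-fold, 6.14 to 10.3), and there the C1q-high range held 1008 CPM against 85.0 CPM in the low range. Cd7, Gpr171, Timp1, Dmkn and Plac8 were 11.1-, 6.91-, 13-, 40.8- and 23.3-fold higher. Thbs1, with 0 UMIs at day 1, was 28.9-fold higher when 3 counts were taken for that sum of 0.

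Genes lower at day 5 included those of lining macrophages. Of 5 measured genes of that list 4 were lower, with a median log2 ratio of -1.29. Vsig4, a complement receptor, was at 255, 418 and 43.8 CPM, 5.82-fold lower at day 5 than at day 1 (3.97 to 8.87), and Sparc, a matrix glycoprotein gene, at 162, 248 and 36.0 CPM, 4.50-fold lower (2.93 to 7.22). The share of cells in the C1q-high range, which carried both genes, was also lowest at day 5. Within that range Vsig4 was at 526, 674 and 93.9 CPM and Sparc at 330, 408 and 113 CPM. The day 5 values there rested on 15 Vsig4 and 18 Sparc UMIs in 33 cells. What part the share of C1q-high cells had in the lower day 5 values was not tested. Lyve1 was 3.15-fold lower (2.45 to 4.09), Ccl7 3.88-fold lower (2.66 to 5.85) and Retnla 2.51-fold lower (2.29 to 2.75). The metallothionein gene Mt2, at 277, 399 and 90.7 CPM, was lower at day 5 in both ranges, at 332, 428 and 46.4 CPM in C1q-low and 237, 395 and 163 CPM in C1q-high cells. The Cd209a-free barcodes had Mt2 at 261, 380 and 79.5 CPM, the same order of days. Of 11 measured genes of the conventional DC core list 0 were higher and 1 was lower, with a median log2 ratio of 0.45.

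**Figure D5:**
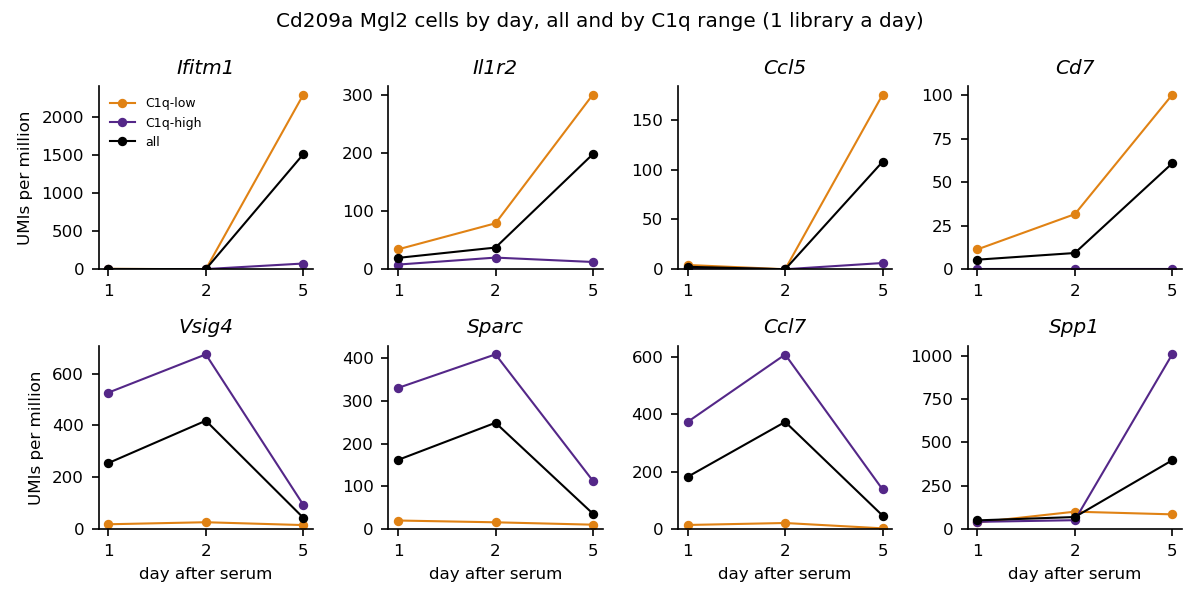
Summed UMIs (CPM) of genes by day in all Cd209a Mgl2 cells and in their C1q-low and C1q-high ranges, 1 library a day. Ifitm1 and Il1r2 are high at day 5 in the C1q-low range, Spp1 in the C1q-high range, and Vsig4 is low at day 5 in the C1q-high range.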

How the data were processed

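Droplet single-cell RNA-seq (Chromium 3' v2) of sorted synovial cells was deposited by the authors as counts, whole UMIs per gene and barcode, 1 file per library. Cell Ranger 2.1.0, Seurat 2.3, R 3.5.2 and mm10 are named per the submitters' processing notes, and their roles are not given in the sources used here. A gene is listed in a file only if at least 5 of its barcodes hold it, so an unlisted gene is not a measured 0. There were 0 columns of unmapped samples.

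Members and gene lists were chosen with earlier results of these data known. UMIs were summed per library and class over the 11736 genes listed in all 3 libraries, and 7965 genes passed edgeR's filter on low counts. The test was edgeR 4.0.16 (R 4.3.3), quasi-likelihood with TMM scaling and library as a term, with Benjamini-Hochberg adjustment at 0.05. The library term pairs the classes because both come from the same library. DESeq2 1.42.0 and the other alternatives are in the closing part. Named genes were drawn from the first 12 called genes per direction by fold, at 50 CPM or more and with 1 direction in 3 libraries, up to 4 per list at 20 CPM or more, the defining genes of each cell type, and 10 per direction between days (50 CPM or more, ratio of at least 2, 5 CPM added in log2 ratios); other genes were named after their values were seen. Counting intervals are exact at 95%. Scripts used Python 3.11.15 with pandas 2.3.3 and SciPy 1.17.1, and were tested on simulated counts. No doublet caller was run, so doublets remain; leaving out the 10% of barcodes of highest UMIs was an alternative.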

Additional observations from a re-analysis of the deposited data

Results flagged for a closer look

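In 6 genes of the lists the ratio of the Cd209a Mgl2 cells over the Cd209a-free barcodes lay on one side of 1 at days 1 and 2 and on the other at day 5, with counting intervals that left out 1 at each day and log2 ratios at least 1 apart. Genes that changed side without meeting both limits, such as Sparc and Ccr2, are not counted. The difference between days was not tested. Ccl17 had log2 ratios of 2.91, 2.1 and -0.28 at days 1, 2 and 5. On the same log2 scale Il1b had 0.78, 0.92 and -0.61, and Traf1 0.90, 1.25 and -0.43. Vsig4 had 0.33, 0.48 and -1.14. Cxcl13 went the other way, with -3.13, -2.49 and 1.98, as did Lipa, the lysosomal acid lipase gene, with -0.83, -0.48 and 0.58. Without the day 5 library Ccl17, Cxcl13 and Traf1 passed the test, at log2 differences of 2.55, -2.85 and 1.09. Ccl17 and Cxcl13 also passed under some other alternatives, among them comparators without Mgl2 for Ccl17 (2.44) and cells with at least 2 Cd209a UMIs for Cxcl13 (-3.74). Traf1 also passed without the Mgl2 requirement (0.67).

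The day 0 library, which enters no comparison, held 51 barcodes that met the rule among 3715 retained (1.37%, exact 95% interval 1.02% to 1.80%). Their median depth was 1288 UMIs. They carried Cd209a at 799 CPM, C1qa at 5101 CPM and Napsa at 140 CPM, with 1 Flt3 UMI in all.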

How the results depend on the processing

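Of 1521 values of a named gene under an alternative, 1305 kept their direction and side of the threshold, 180 lost and 34 gained the call, and 2 reversed: Retnla (0.26, comparators without Mgl2) and Ifitm3 (0.0745, no Mgl2 requirement). Of 99 day ratios 74 moved little, 25 moved and 0 reversed. The count of higher genes was 88 after thinning, 85 with DESeq2 and 97 to 347 with a library left out; that of lower genes was 84, 88 and 93 to 254. Both classes come from the same library, so library is the replicate block, and with no replicate block the counts were 43 and 11. The dendritic cell median was 0.89 against comparators without Mgl2 and 0.47 to 0.78 with a library left out. The macrophage median was -0.59 to -0.71 with a library left out and -0.85 without barcodes holding Vsig4 or Sparc, an alternative chosen after seeing the data. The share at days 1, 2 and 5 was 5.18%, 3.61% and 2.82% after thinning, 5.02%, 3.38% and 2.97% with 2 Cd209a UMIs, 5.84% and 4.04% at days 1 and 2 without the deepest barcodes, 6.46% at day 5 without the Mgl2 requirement, and 11.3%, 8.56% and 5.07% without Vsig4 or Sparc. The causes were not tested. Depth limits Flt3, Zbtb46 and Ly6c2, with few UMIs a cell.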
